A study of Mus musculus with 4 samples.

Results

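The 10 genes described here, Dcn, Lum, Postn, Fap, Pdgfra, Thy1, Acta2, S100a4, Pdgfrb and Fbln1, are a set of markers of fibroblasts and of pericytes, the contractile cells around small vessels. They were taken by symbol from the deposited read count table, which holds 24527 gene symbols, and all 10 were found. The question was where such genes were read in B16F10 mouse melanoma RNA, given that NIH/3T3 fibroblasts were grown with the melanoma cells in some cultures and that the mouse brings its own stroma to a tumor. There were 4 libraries, 1 for each condition, of genotype WT: B16F10 in 2D monoculture, 2D co-culture with NIH/3T3, spheroids made with NIH/3T3 in hanging drops, and tumors grown from B16F10 under the skin of year-old female C57BL/6 mice. The culture libraries are described as melanoma cells that carry a green fluorescent protein and were sorted on it, away from red fluorescent NIH/3T3 cells where these were present. The tumor is described in the design as sorted cells, whereas its own label calls it snap-frozen tissue. Both lines and the host are mouse, so that no read can be assigned to melanoma cell, NIH/3T3 cell or host cell by its sequence. With 1 library per condition no difference has a replicate check and no test of a condition could be made. The intervals given are 95% intervals and cover counting error only.

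Fibroblasts build and remodel the extracellular matrix, and pericytes wrap the vessel wall. Both arise from mesenchyme, respond to platelet-derived growth factors through the receptors encoded by Pdgfra and Pdgfrb, and can take on a contractile, myofibroblast state when stimulated by transforming growth factor beta. In tumors, cells of this kind are called cancer-associated fibroblasts. No single gene defines them, and several of the markers are also made by other cells: S100a4, an EF-hand calcium-binding protein also called fibroblast-specific protein, is known from leukocytes and from metastatic tumor cells.

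The libraries held between 118896900 and 150028663 reads, and levels are given as CPM, the reads on a gene per 1000000 reads of the library after scaling with TMM factors. A gene with 0 reads could still have held up to 3 reads, or 0.0185 to 0.0262 CPM depending on the library. The melanocyte markers were high in every library, with a summed level over 7 genes between 10549 and 18850 CPM and none at 0. Single genes among them varied. Sox10 had 237 CPM in the tumor and between 834 and 902 in the cultures. Mitf had 70.3 CPM in the spheroid and between 223 and 708 in the other libraries. Markers of other cells were high in the tumor library. The 8 myeloid markers summed to 1839 CPM in the tumor and to between 9.96 and 29.9 in the cultures, and the 6 endothelial markers to 255 CPM against 0.379 to 0.454 CPM. All 8 myeloid, 6 endothelial, 5 skeletal muscle and 3 adipocyte markers were more than 2-fold higher in the tumor than in the 2D monoculture. Of all genes whose mean reached 1 CPM, 14.8% were. Xist, which is transcribed in female cells, had 69.9 CPM in the tumor and at most 0.262 CPM in a culture. The part of these other cells in the tumor values below was not tested.

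The markers fell into groups by where they were read. In the tumor library, 8 of the 10 genes were more than 2-fold higher than in the 2D monoculture and 0 were more than 2-fold lower, after 1 CPM was added to each value. Among all 12728 genes whose mean reached 1 CPM, 14.8% were higher by this measure and 18.2% lower. The median log2 ratio was 4.26 for the markers and -0.14 for all those genes. In the 2D co-culture, 4 of the 10 were more than 2-fold higher than in the monoculture, against 3.79% of all genes, and 0 were lower, against 9.51%. In the spheroid, 2 were higher, against 11.2% of all genes, and 0 were lower, against 17.9%. With nothing added, the counting intervals of 7 markers lay above 2-fold in the co-culture, where Dcn, Pdgfra and Fap joined the 4. In the spheroid those of 3 lay above, where Thy1 joined, and those of 2, Dcn and Pdgfra, lay below. The shares of all genes are not on this scale. The median log2 ratio to the monoculture, with 1 CPM added, was 0.95 in the co-culture and 0.0022 in the spheroid, beside 0.01 and 0.05 for all genes. All 10 markers passed the filter on low values, but only 7 would have passed on the cultures alone, so these counts rest partly on the tumor library. All 3 comparisons share the monoculture library.

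**Figure D1:**
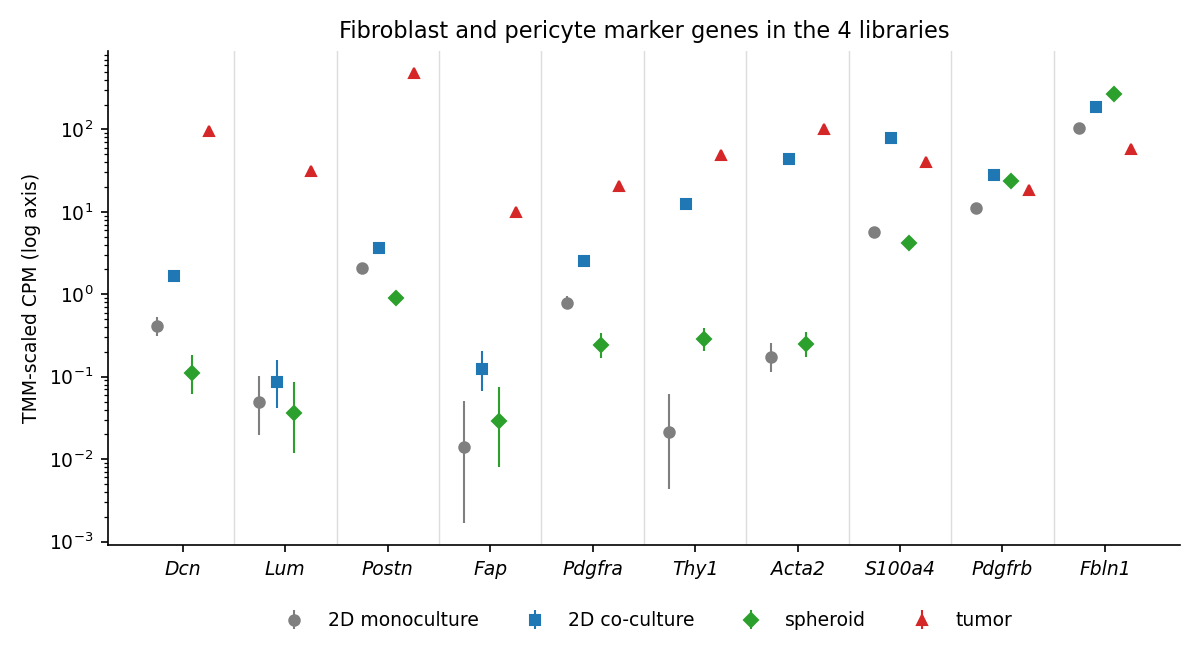
TMM-scaled CPM on a log axis (vertical) of each marker gene (horizontal) in the 4 libraries, with 95% counting intervals as bars. Dcn, Lum, Postn, Fap and Pdgfra stand apart in the tumor, Thy1, Acta2 and S100a4 are high in the tumor and the 2D co-culture, and Pdgfrb and Fbln1 are at 11.02 CPM or more in all 4 libraries.

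The matrix genes Dcn and Lum were read almost entirely in the tumor. Decorin and lumican, their products, are small leucine-rich proteoglycans that bind collagen fibrils and set their spacing. Dcn (chr10:97479609-97518143, GRCm38, plus strand) had 95.7 CPM in the tumor, 1.68 in the 2D co-culture, 0.407 in the 2D monoculture and 0.11 in the spheroid. These levels rest on 15540, 192, 58 and 15 reads. The tumor level was 235-fold that of the monoculture (interval 182 to 310). The co-culture exceeded the monoculture 4.12-fold (3.06 to 5.63) and still lay 57.1-fold under the tumor. Lum (chr10:97565128-97572703, plus strand), its neighbor on the chromosome, had 30.9 CPM in the tumor and 0.0491, 0.0873 and 0.0367 in the monoculture, the co-culture and the spheroid. The 3 cultures hold 7, 10 and 5 reads of Lum, and their counting intervals overlap. The ratio of co-culture to monoculture for Lum was 1.78 with an interval of 0.611 to 5.50, so that no difference between these cultures was detectable at this depth.

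Postn and Fap were likewise highest in the tumor and next highest in the 2D co-culture. Periostin, the product of Postn, is a matricellular protein of wounds and tumor stroma, and Fap encodes a membrane serine protease that marks activated fibroblasts. Postn (chr3:54361109-54391037, plus strand) had 476 CPM in the tumor, 3.68 in the co-culture, 2.11 in the monoculture and 0.889 in the spheroid. The monoculture thus held 300 reads of Postn with no fibroblast in the dish, and the tumor 77332 reads. Fap (chr2:62500943-62574075, minus strand) had 9.997 CPM in the tumor and 0.122, 0.014 and 0.0294 in the co-culture, the monoculture and the spheroid. With 2 reads in the monoculture, its ratio of tumor to monoculture was 712 with a wide interval, 197 to 5885. The co-culture held 14 reads of Fap and lay 81.8-fold under the tumor (48.6 to 150).

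Pdgfra, the receptor of the alpha type and a general marker of fibroblasts, was the least extreme of this group. It lies at chr5:75152292-75198215 on the plus strand, and 6.21% of its exon bases overlap annotated genes of the opposite strand. The strand setting of the counting is not given in the sources used here, so that reads of these genes cannot be told apart from its own. Pdgfra had 20.6 CPM in the tumor, 2.51 in the 2D co-culture, 0.793 in the 2D monoculture and 0.242 in the spheroid. The co-culture was 3.16-fold above the monoculture (2.53 to 3.96), and the spheroid 3.27-fold below it (2.20 to 4.98).

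Thy1 and Acta2 were close to absent from the monoculture and high in both the tumor and the 2D co-culture. Thy1 encodes a glycolipid-anchored surface protein used to sort fibroblasts, and Acta2 the smooth muscle actin of pericytes and myofibroblasts. Thy1 (chr9:44043384-44048579, plus strand) had 49.2 CPM in the tumor, 12.5 in the 2D co-culture, 0.286 in the spheroid and 0.0211 in the monoculture. The monoculture value is 3 reads, against 1433 in the co-culture. The ratio of co-culture to monoculture was 594 (203 to 2886), and that of spheroid to monoculture 13.6 (4.32 to 68.8). With 1 CPM added and a correction for GC content, the log2 ratio of spheroid to monoculture for Thy1 turned from 0.33 to -0.21. Both levels are under the 1 CPM added, which shrinks this ratio toward no difference. The correction was not made to the ratio with nothing added, so this turn does not show that its direction depends on GC content. Acta2 (chr19:34241090-34255590, minus strand) had 100.5 CPM in the tumor, 43.6 in the co-culture, 0.25 in the spheroid and 0.175 in the monoculture. Its ratio of co-culture to monoculture was 248 (168 to 384). For the spheroid the ratio was 1.42 (0.824 to 2.49), which includes no difference.

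Reads of Acta2 could in principle be mixed with those of other actin genes. Acta1, the skeletal muscle actin gene, had 1360 CPM in the tumor and 2.65 in the co-culture. No stretch of 50 bases of an Acta2 transcript occurs in a transcript of Acta1, and 0.326% of such stretches occur in another gene of the annotation. In the co-culture the reads of Acta2 were 16.5 times those of Acta1 (14.7 to 18.5), and in the tumor 0.0739 times (0.0727 to 0.075). The cytoplasmic actin genes Actb and Actg1 were at 1568 CPM or more in all 4 libraries, Actg2 at 4.01 CPM or less, and Actc1 at 5.12 CPM or less.

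S100a4 was highest in the 2D co-culture and lowest in the spheroid. It lies at chr3:90603771-90606045 on the plus strand, and 51.7% of its exon bases also belong to an annotated gene of the same strand, Gm42674, which is no row of the count table. S100a4 had 77.9 CPM in the co-culture, 40.1 in the tumor, 5.76 in the 2D monoculture and 4.23 in the spheroid. The co-culture was 13.5-fold above the monoculture (12.6 to 14.6) and 1.94-fold above the tumor (1.88 to 2.01). The spheroid was below the monoculture, at 0.735 of its level (0.659 to 0.819).

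The promoter windows below are shown because their genes stand for the patterns of the set: Postn for reads in the tumor, Acta2 and S100a4 for reads in the tumor and the 2D co-culture, and Fbln1 for reads in every library. Each runs 5′ to 3′ on the strand of the gene, from 250 bases before a transcript start to 50 bases after it, from RefSeq on GRCm38.p6. The windows are chr3:54360857-54361156 (plus strand) for Postn, chr19:34255324-34255623 (minus strand) for Acta2, chr3:90603520-90603819 (plus strand) for S100a4 and chr15:85205758-85206057 (plus strand) for Fbln1. For Postn and Fbln1 the second of 2 annotated starts is shown, since the window of the other start held none of the motifs searched. Capitals mark matches, on either strand, to TATAAA, the core of a TATA box, and to GGGCGG, a GC box.
Postn: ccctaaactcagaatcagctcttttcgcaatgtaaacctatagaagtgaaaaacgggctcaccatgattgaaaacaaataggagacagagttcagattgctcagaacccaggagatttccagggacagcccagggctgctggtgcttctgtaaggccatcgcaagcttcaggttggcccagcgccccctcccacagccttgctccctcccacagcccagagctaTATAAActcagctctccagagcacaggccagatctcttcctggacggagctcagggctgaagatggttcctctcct
Acta2: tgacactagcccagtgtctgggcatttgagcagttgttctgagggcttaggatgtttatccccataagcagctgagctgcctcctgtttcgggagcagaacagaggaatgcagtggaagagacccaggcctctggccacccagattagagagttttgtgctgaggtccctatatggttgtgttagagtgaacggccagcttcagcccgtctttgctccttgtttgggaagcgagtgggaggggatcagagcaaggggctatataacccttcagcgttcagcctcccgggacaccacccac
S100a4: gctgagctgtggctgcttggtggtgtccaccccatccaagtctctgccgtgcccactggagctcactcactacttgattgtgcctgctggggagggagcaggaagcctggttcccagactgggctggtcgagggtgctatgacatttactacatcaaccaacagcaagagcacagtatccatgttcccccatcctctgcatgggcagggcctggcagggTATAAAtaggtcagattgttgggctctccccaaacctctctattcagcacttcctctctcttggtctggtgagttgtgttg
Fbln1: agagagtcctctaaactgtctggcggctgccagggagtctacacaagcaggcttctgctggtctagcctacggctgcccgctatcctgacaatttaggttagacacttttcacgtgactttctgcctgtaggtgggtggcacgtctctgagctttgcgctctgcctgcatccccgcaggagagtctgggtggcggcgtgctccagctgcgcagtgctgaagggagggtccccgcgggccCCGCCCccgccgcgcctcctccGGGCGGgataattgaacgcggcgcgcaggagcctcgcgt
TATAAA occurs 26 bases before the start of Postn and 31 bases before that of S100a4, and in 13.6% of all 32851 promoter windows of this length. Variants of TATAAA were not searched, so that the letters tatataa in the window of Acta2 are not marked. These letters lie after the transcript start used for that window, not before it as the matches of Postn and S100a4 do. Fbln1 holds GGGCGG on both strands, 11 bases before and 12 bases after its start, and 35.7% of all windows hold it. The windows of Postn and Fbln1 were picked for holding a match, so that these shares are no comparison for them. TGANTCA, the AP-1 site, was found in none of these 4 windows and in 7.81% of all. The CArG box, the site of serum response factor in many contractile genes, was searched for in its exact form alone, which 1.63% of all windows and none of the 4 hold. Variants of it were not searched, and the known serum response factor sites of the Acta2 promoter need not have the exact form. A match is a description of the letters and no evidence of binding.

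Fbln1 was the member that the melanoma monoculture itself held in quantity. Fibulin-1, its product, is a glycoprotein of basement membranes and elastic fibers. Fbln1 (chr15:85205949-85286535, plus strand) was highest in the spheroid with 266 CPM, followed by the 2D co-culture with 186, the 2D monoculture with 105 and the tumor with 58.4 CPM. The tumor was thus the lowest of the 4 libraries, and the counting intervals of the 4 do not overlap. The ratio to the monoculture was 2.53 in the spheroid (2.48 to 2.58), 1.76 in the co-culture (1.73 to 1.80) and 0.555 in the tumor (0.541 to 0.569). The tumor and the spheroid differed 4.56-fold. After a correction for GC content, the log2 ratio of spheroid to monoculture was 0.92 with 1 CPM added, against 1.33 without it.

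Pdgfrb, the receptor of the beta type and a marker of pericytes, was also read in every library. It lies at chr18:61045150-61085061 on the plus strand. Pdgfrb had 27.7 CPM in the 2D co-culture, 23.5 in the spheroid, 18.5 in the tumor and 11.02 in the monoculture. These values span 2.51-fold (2.37 to 2.67), the narrowest range of the set. With 1 CPM added, the order of tumor and spheroid turned with total count scaling, where the log2 ratio of spheroid to tumor was -0.0096 in place of 0.33, and with the GC correction, where it was -0.54. On the same scale, the order of tumor and co-culture turned with the GC correction, to a log2 ratio of -0.06 from 0.56. Within a library, the reads of Pdgfrb were 0.899 times those of Pdgfra in the tumor, 11.1 times in the co-culture, 13.9 times in the monoculture and 97.1 times in the spheroid.

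Levels of different genes were set side by side per kb of exon. The length takes in the exons of every annotated transcript of a gene, from 584 bases for S100a4 to 10024 for Pdgfra. It can exceed the length of the transcripts that were read, so the order of genes depends on it, and no other length was tried. The tumor held 68.6 CPM per kb of S100a4, 54.7 of Postn, 45.7 of Acta2, 16.4 of Thy1, 16.4 of Dcn, 13.4 of Fbln1 and 12.6 of Lum. Pdgfrb, Pdgfra and Fap followed with 3.38, 2.05 and 1.77 CPM per kb. The intervals of neighbors in this order overlapped for Thy1 and Dcn and for no other pair. In the monoculture Fbln1 was highest at 24.1 CPM per kb, before S100a4 at 9.86 and Pdgfrb at 2.01, and the other 7 genes were at 0.242 CPM per kb or less. The spheroid had the same leading genes, with 60.9, 7.24 and 4.30 CPM per kb. In the co-culture S100a4 led with 133 CPM per kb, followed by Fbln1 with 42.5, Acta2 with 19.8, Pdgfrb with 5.06 and Thy1 with 4.18.

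**Figure D2:**
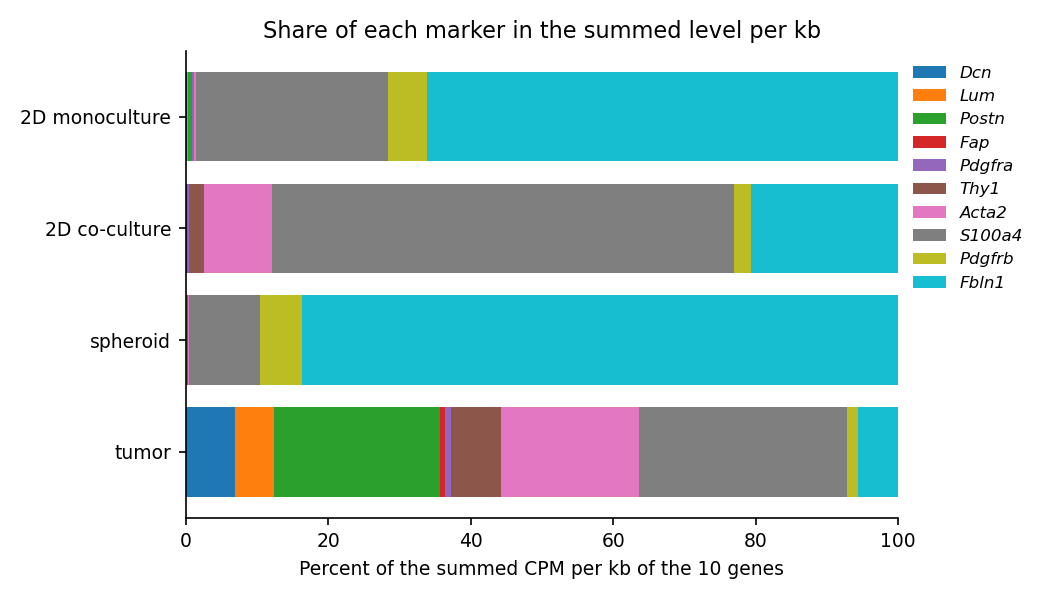
Share (horizontal, percent) of each marker gene in the summed CPM per kb of the 10 genes, 1 bar per library. Fbln1 makes up 66.1% in the 2D monoculture and 83.6% in the spheroid, S100a4 64.8% in the 2D co-culture, and Postn and Acta2 together with S100a4 most of the tumor bar, with 23.3%, 19.5% and 29.2%. The shares depend on the exon lengths used.

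The 2D co-culture and the tumor differed in which markers they held. Relative to the tumor, 7 of the 10 genes were more than 2-fold lower in the co-culture, against 20.9% of all genes, and 1, Fbln1, was more than 2-fold higher, against 18.8%. As a percent of the tumor level, Lum stood at 0.283%, Postn at 0.772%, Fap at 1.22%, Dcn at 1.75% and Pdgfra at 12.2% in the co-culture. Thy1 stood at 25.4%, Acta2 at 43.4%, Pdgfrb at 150%, S100a4 at 194% and Fbln1 at 318%. The counting interval was 0.136% to 0.521% for Lum and 24.0% to 26.9% for Thy1, so that the range of percentages is far wider than counting error. The ratio of 2 genes within a library is free of scaling: Thy1 had 7.46 reads for each read of Dcn in the co-culture (6.42 to 8.72) and 0.514 in the tumor (0.50 to 0.528). Acta2 had 11.8 reads for each read of Postn in the co-culture (10.7 to 13.1) and 0.211 in the tumor (0.207 to 0.214). Such ratios are not free of effects of GC content. With 1 CPM added, the GC correction changed the log2 ratio of co-culture to tumor from -5.18 to -4.47 for Dcn and from -6.67 to -5.97 for Postn. For Thy1 it went from -1.89 to -2.66, beside -2.71 for Pdgfra, and for Acta2 from -1.19 to -1.27.

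The collagen genes of the co-culture lay between 4.06% and 123% of the tumor level, a narrower range than that of the markers. All 8 fibrillar and type VI collagen genes were more than 2-fold higher in the co-culture than in the monoculture, with a median log2 ratio of 5.27, against 3.79% of all genes, and all 8 in the tumor, with a median of 6.91, against 14.8%. As a percent of the tumor level, Col6a1 stood at 123%, Col6a2 at 95.2%, Col1a2 at 82.7%, Col6a3 at 13.7%, Col1a1 at 11.8% and Col3a1 at 4.06%. The reads of Dcn per 100 reads of Col1a2, the gene of a type I collagen chain, were 0.326 in the co-culture (0.282 to 0.376) and 15.4 in the tumor (15.1 to 15.7). For Thy1 these were 2.44 and 7.91, for Acta2 8.47 and 16.2, and for S100a4 15.2 and 6.45. S100a4 was thus the only one of these 4 with more reads per Col1a2 read in the co-culture than in the tumor.

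**Figure D3:**
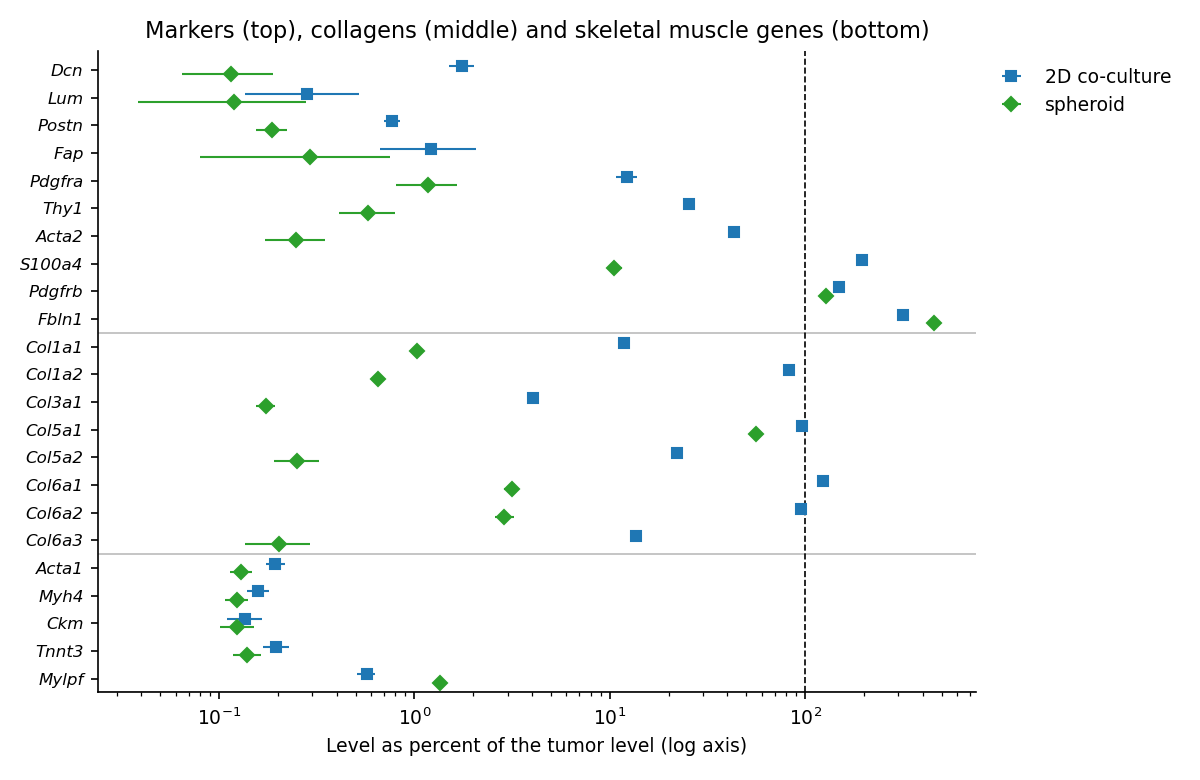
Level in the 2D co-culture and the spheroid as percent of the tumor level (horizontal, log axis) for the marker genes, fibrillar and type VI collagen genes and skeletal muscle genes, with 95% counting intervals as bars and a dashed line at 100%. In the co-culture the markers run from 0.283% for Lum to 318% for Fbln1, while the muscle genes lie between 0.136% and 0.569%.

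Skeletal muscle genes give a level to set beside the low percentages, since neither melanoma cells nor fibroblasts are known for them. Their median was 0.195% of the tumor level in the co-culture and 0.13% in the spheroid, against 0.0294% in the monoculture. Acta1 stood at 0.195% in the co-culture (0.173% to 0.218%), which lies inside the counting interval of Lum. Every marker but Lum lay above 0.569%, the highest percent of a muscle gene in the co-culture, also at the lower bound of its interval. In the spheroid the muscle genes lay between 0.124% and 1.35%, and of the markers S100a4, Pdgfrb and Fbln1 lay above that range. Mylpf was the highest muscle gene in the co-culture and in the spheroid. The monoculture also held Mylpf, at 2.38 CPM or 0.446% of the tumor level. Which markers lay above the range in the spheroid thus rests on Mylpf, since the median of the muscle genes there was 0.13%. Whether reads of the tumor sample add to these low values was not tested. Nor was it tested whether NIH/3T3 cells carried through the sort, or expression in the melanoma cells, account for the co-culture values.

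The spheroid, which was also grown with NIH/3T3, differed from the 2D co-culture in most markers. Between them, 6 of the 10 markers were more than 2-fold lower in the spheroid, against 8.46% of all genes, and 0 were more than 2-fold higher, against 9.54%. The median log2 ratio was -1.29 for the markers and -0.01 for all genes. Without a value added, Acta2 was 174-fold lower in the spheroid (125 to 252), Thy1 43.7-fold (31.8 to 61.7), S100a4 18.4-fold (16.9 to 20.1), Dcn 15.2-fold (9.002 to 27.7), Pdgfra 10.3-fold (7.20 to 15.3) and Postn 4.14-fold (3.37 to 5.11). Pdgfrb was at 0.85 of the co-culture level and Fbln1 at 1.43 times it. Against the tumor, 8 markers were more than 2-fold lower in the spheroid and Fbln1 more than 2-fold higher, where 27.6% and 26.8% of all genes were. In percent of the tumor level, Dcn stood at 0.115%, Lum at 0.119%, Postn at 0.187%, Acta2 at 0.249%, Fap at 0.294%, Thy1 at 0.582%, Pdgfra at 1.18% and S100a4 at 10.6% in the spheroid. In bulk RNA, fewer cells of a type and less RNA per cell cannot be told apart.

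The families of the markers were not uniform. Their counts take in every gene of a family, also those under the mean of 1 CPM that the shares of all genes require. Of 10 small leucine-rich proteoglycan genes, 7 were more than 2-fold higher in the tumor than in the monoculture, against 14.8% of all genes, and 1, Bgn, in the co-culture, against 3.79%, and 0 were lower in either. Bgn, the gene of biglycan, had 175 CPM in the tumor, 103 in the co-culture, 1.63 in the spheroid and 0.147 in the monoculture. Its reads were 61.6 times those of Dcn in the co-culture (53.4 to 71.5) and 1.83 times in the tumor (1.79 to 1.86). Fmod, the gene of fibromodulin, had 3.55 CPM in the tumor and 0 reads in the co-culture. Kera and Epyc had at most 0.0554 CPM in any library.

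Among 7 fibulin genes, 3 were more than 2-fold higher and 0 lower in the tumor than in the monoculture, against 14.8% and 18.2% of all genes. In the co-culture 2 were higher and 1, Hmcn1, lower, against 3.79% and 9.51%. Fbln2 had 50.3 CPM in the co-culture, 86.4 in the tumor, 0.536 in the spheroid and 0.0351 in the monoculture, an order unlike that of Fbln1. Efemp1, also called fibulin-3, had 17.2 CPM in the co-culture and 10.7 in the tumor, against 0.00702 in the monoculture. Efemp2 stayed between 35.5 and 72.1 CPM in all 4 libraries. Hmcn1 had 20.9 CPM in the monoculture, 21.6 in the tumor and 6.62 in the co-culture.

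The genes of the platelet-derived growth factors, the ligands of Pdgfra and Pdgfrb, were read in all 4 libraries. Of 7 ligand and receptor genes, 5 were more than 2-fold higher and 1 lower in the tumor than in the monoculture, against 14.8% and 18.2% of all genes. In the co-culture 3 were higher and 0 lower, against 3.79% and 9.51%. Pdgfa was highest in the spheroid at 39.5 CPM and lowest in the tumor at 10.5 CPM. Pdgfb, which endothelial cells make to recruit pericytes, had 19.3 CPM in the tumor and between 0.463 and 1.495 in the cultures. Pdgfc had 8.95 CPM in the tumor, 5.21 in the co-culture and 2.06 in the monoculture.

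Acta2 was among the few contractile genes more than 2-fold higher in the co-culture than in the monoculture. Of 11, 3 were higher in the co-culture, Acta2 included, and 1 lower, against 3.79% and 9.51% of all genes. In the tumor 7 were higher and 2 lower, against 14.8% and 18.2%. Tpm2, a tropomyosin gene also used in skeletal muscle, had 267 CPM in the tumor, 8.29 in the co-culture, 2.91 in the spheroid and 1.18 in the monoculture. Cald1, the caldesmon gene, was highest in the monoculture at 270.1 CPM and had 152 CPM in the co-culture, 75.0 in the tumor and 65.5 in the spheroid. Lmod1 had 9.14 CPM in the monoculture and 2.16 in the tumor.

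Of 13 S100 genes, 5 were more than 2-fold higher in the tumor than in the monoculture, against 14.8% of all genes, and 3 in the co-culture, against 3.79%, and 0 were lower in either. S100a6, of the same gene cluster as S100a4, had 62.5 CPM in the co-culture, 101.0 in the tumor, 13.1 in the monoculture and 4.81 in the spheroid, the same order of culture levels as S100a4. S100b, a marker of the neural crest lineage to which melanocytes belong, had 87.6 CPM in the monoculture, 93.6 in the spheroid, 77.6 in the tumor and 44.9 in the co-culture. S100a16 had 76.2 CPM in the tumor and between 3.47 and 8.28 in the cultures.

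Transcription factors of mesenchymal cells divided in a like manner. Of 13, 8 were more than 2-fold higher in the tumor than in the monoculture, against 14.8% of all genes, and 6 in the co-culture, against 3.79%, and 0 were lower in either. Prrx1, a factor of limb and skin mesenchyme, had 24.9 CPM in the tumor, 22.7 in the co-culture, 0.382 in the spheroid and 0.0632 in the monoculture. Osr1 had 4.37 CPM in the co-culture, 3.04 in the tumor and 0.00702 in the monoculture. Meox1 and Meox2 had 6.82 and 9.76 CPM in the tumor and 0.0175 CPM each, or 2 reads, in the co-culture. Tbx15 was read at between 11.99 and 22.98 CPM in all 4 libraries, the monoculture included.

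**Figure D4:**
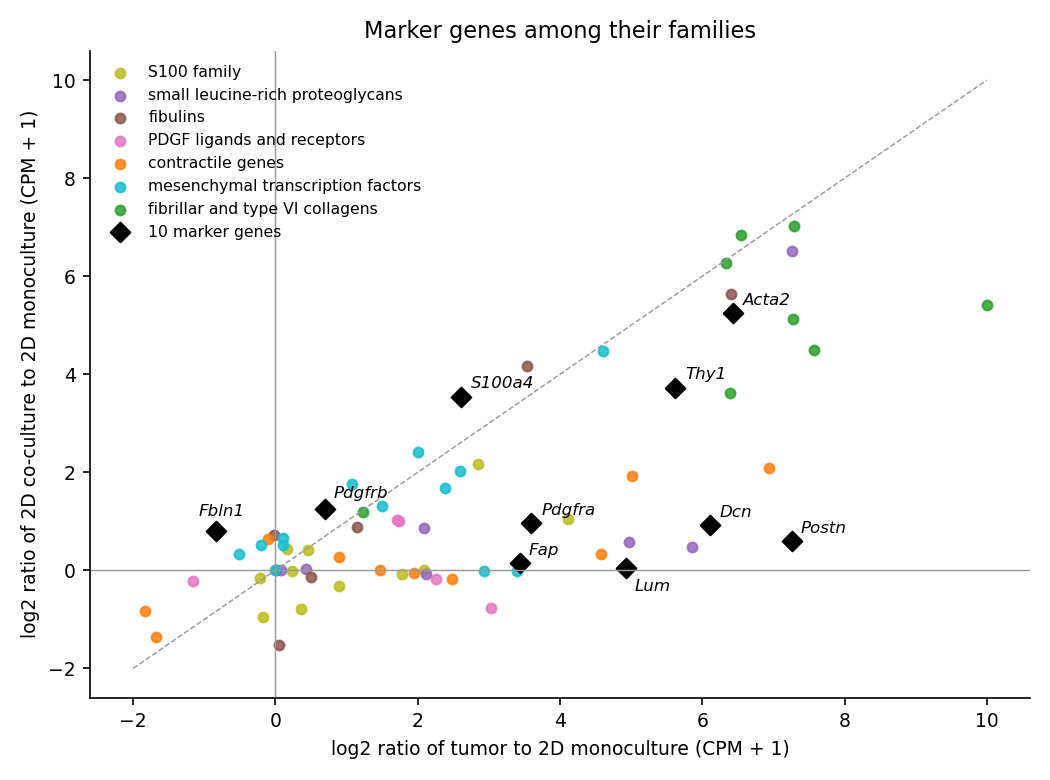
Log2 ratio of 2D co-culture to 2D monoculture (vertical) against that of tumor to 2D monoculture (horizontal), both with 1 CPM added, for the marker genes (black diamonds) and the other genes of their families (circles), with a dashed line where both ratios are equal. Both axes share the monoculture library. S100a4, Pdgfrb and Fbln1 lie above the line, Acta2 and Thy1 right of it, and Lum, Fap, Postn and Dcn far below it, at 0.05, 0.15, 0.59 and 0.93 on the vertical axis.

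Further markers of skin fibroblasts and pericytes were mostly read in the tumor. Of 11 dermal fibroblast genes, 10 were more than 2-fold higher in the tumor than in the monoculture, with a median log2 ratio of 3.40, against 14.8% of all genes. In the co-culture 1 was, with a median of 0.17, against 3.79% of all genes, and 0 were lower in either. Dpt and Mfap5 had 74.1 and 79.8 CPM in the tumor and 0.157 and 0.90 in the co-culture. Pcolce, the gene of an enhancer of procollagen processing, was read in every library, with 121 CPM in the monoculture, 226 in the co-culture, 143 in the spheroid and 78.6 in the tumor. Of 11 pericyte genes, 7 were higher and 1 lower in the tumor, against 14.8% and 18.2% of all genes, and 1 was higher and 0 lower in the co-culture, against 3.79% and 9.51%. Rgs5, a pericyte gene, had 94.9 CPM in the tumor and between 0.103 and 0.267 in the cultures. Cspg4 had 21.0 CPM in the co-culture, 9.98 in the tumor and 7.24 in the monoculture, and Mcam was highest in the monoculture at 384 CPM. Notch3 was highest in the spheroid, with 43.6 CPM against between 5.41 and 9.98 CPM elsewhere. Des, which skeletal muscle also makes, had 656 CPM in the tumor.

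The genes nearest to a marker in pattern were found by the distance between log2 levels over the 4 libraries, each centered on its mean, among 9588 genes whose mean reached 10 CPM. With 4 values per gene this is a description only. Nearest to Dcn were Igfbp7, Ly6c1 and Mfap5, at distances of 0.238, 0.372 and 0.373. Nearest to Thy1 were Pxdn, Grb10 and Aqp1, at 0.565, 0.627 and 0.631, and nearest to Acta2 were Fbln2, Col5a2 and Bgn, at 0.455, 0.741 and 0.975. Pxdn, a peroxidase gene of basement membranes, had 44.8 CPM in the tumor, 7.09 in the co-culture, 0.0955 in the spheroid and 0.0281 in the monoculture.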

How the data were processed

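Read counts per refGene symbol, as whole numbers without normalization, were deposited by the authors in 1 table with a column for each of the 4 libraries. The submitters' processing notes name Trimmomatic, STAR, featureCounts and the build mm10. Their versions, the strand setting and the treatment of reads with several matches are not given in those sources. The columns were matched to conditions by their names.

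TMM factors were computed with edgeR 4.0.16 (R 4.3.3) and used to scale counts to CPM. DESeq2 1.42.0 size factors, total counts and upper quartiles were alternatives. Other steps used Python 3.11.15, numpy 2.4.6, pandas 2.3.3, scipy 1.17.1 and matplotlib 3.10.9. Intervals of CPM are exact Clopper-Pearson intervals. For a ratio, the exact binomial interval was taken of how the reads of a gene were split between both libraries. Ratios of single genes have nothing added, and counts past 2-fold, medians of lists and patterns use 1 CPM added to each value. The study's methods name NOISeq and GFold, which were not run. No p-value is given, since each condition has 1 library. The fold counts and intervals were tested on simulated data that hold counting error alone, with changes put only into genes of higher level. That test covers neither variation between samples nor the low levels of most markers in the cultures.

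Exon lengths, overlaps, shared stretches of 50 bases and GC content come from GENCODE M21 on GRCm38, the assembly of mm10, which may differ from the annotation the authors counted on. All 10 markers had an entry, and a GC value was found for 97.9% of genes whose mean reached 1 CPM. Promoter windows are those of RefSeq on GRCm38.p6, which held entries for Pdgfra, Postn, Acta2, S100a4 and Fbln1 among the markers considered. Protein sequences were not used here.

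The markers and the other lists were chosen with earlier results of these data known. The genes named are all 10 markers, the actin genes related to Acta2, Xist, and the 3 nearest patterns of Dcn, Thy1 and Acta2. The others come from the 2 highest and 2 lowest ratios of tumor and of 2D co-culture to 2D monoculture in each list. In lists of up to 4 every gene could be named. Not every gene that this rule picks is named, and Col5a1 and the single adipocyte genes are among those left out.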

Additional observations from a re-analysis of the deposited data

Results flagged for a closer look

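Dcn, Pdgfra, Postn and S100a4 were on opposite sides of the 2D monoculture in the cultures grown with NIH/3T3 cells. Their counting intervals were above it in the 2D co-culture and below it in the spheroid. How many of all genes did the same was not counted, so this is not shown to be particular to the markers. The log2 ratios to the monoculture, with nothing added, were 2.04 and -1.89 for Dcn, 1.66 and -1.71 for Pdgfra, 0.80 and -1.24 for Postn and 3.76 and -0.44 for S100a4, the co-culture first. Each value rests on 1 library, both cultures are set against the same monoculture library, and the difference between them was not tested. With 1 CPM added and the GC content correction, the ratio of spheroid to monoculture was 0.09 for Dcn, in place of -0.34, and kept its sign for Pdgfra, Postn and S100a4, at -0.45, -0.29 and -0.29. Both levels of Dcn are under the 1 CPM added, which shrinks its ratio toward no difference. The correction was not made to ratios with nothing added, so the turn for Dcn does not show that its direction depends on GC content.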

How the results depend on the processing

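No paired analysis was possible because there was 1 library for each condition. Counts within 1.5 times and medians within 1.5-fold of the value reported were taken as the same. The GC content correction was chosen after seeing the data. Of 72 alternative counts of markers 66 were the same, of 42 alternative medians of the markers 36, and of 150 medians of other lists 126. Medians near 0 changed sign: markers in spheroid to monoculture (0.0022 to -0.0013, total count), and in co-culture to monoculture pericyte (-0.04 to 0.0045 with upper quartiles and 0.07 as a mean), melanocyte (0.06 to -0.09 as a mean) and myeloid (0.13 to -0.07 as a mean). The cause was not tested for any that moved.

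Markers over 2-fold higher in the spheroid than in the 2D monoculture, 2 as reported, numbered 1 with total count scaling, 0 with a threshold of 4-fold and 0 with the GC correction, and those lower, 0 as reported, numbered 3 with a pseudocount of 0.1 CPM. With 4-fold, the 1 marker higher in the co-culture than in the tumor became 0, and the 6 lower in the spheroid than in the co-culture became 3. Medians of the markers moved with a pseudocount of 0.1 CPM to 7.02 (tumor to monoculture), -6.64 (spheroid to tumor) and -2.43 (spheroid to co-culture). Their mean was 1.73 (co-culture to monoculture) and -3.90 (spheroid to tumor), and without Acta2 and S100a4 the median of co-culture to tumor was -2.96.

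For tumor to monoculture, a pseudocount of 0.1 CPM gave medians of 5.68 (small leucine-rich proteoglycans), 1.15 (fibulins), 3.60 (PDGF genes), 3.87 (contractile), 4.27 (transcription factors), 8.45 (collagens), 5.95 (dermal fibroblast), 4.004 (pericyte), 9.06 (myeloid), 7.66 (endothelial), 11.41 (skeletal muscle), 9.83 (adipocyte) and 8.87 (Xist). Means were 1.54 (fibulins), 1.17 (S100) and 2.10 (pericyte). For co-culture to monoculture, the pseudocount gave 1.26 (transcription factors), 7.27 (collagens), 0.91 (myeloid), 2.46 (skeletal muscle), 0.83 (adipocyte) and 1.28 (Xist), and means were 0.94 (small leucine-rich proteoglycans) and 1.51 (fibulins).

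Levels of single markers changed by factors between 0.908 and 1.16 with other scalings. Total count scaling moved every log2 ratio of spheroid to tumor by -0.36 and of co-culture to tumor by -0.27. Depth limits Lum and Fap, with at most 14 reads in any culture. Shares of all genes over 2-fold moved by more than 1.5 times in 8 of 24 alternatives.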
